A study of Mus musculus with 15 samples.

Results

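Ighv genes are the germline variable segments of the mouse heavy chain locus (Igh), and the usage of these segments was described in cultured B cells, plasma cells among them. The members were all genes whose symbol starts with Ighv and that had an expected count above 0 in at least 1 library, which gave 154 of the 51912 genes in the deposited table. A further 31 Ighv genes were at 0 in every library, out of 185 in the table. Of the 154 members, 112 are annotated as V genes, 41 as V pseudogenes and 1 as an LV gene. RNA came from wild-type mouse B cells grown for 6 days with IL-4 on 40LB feeder cells, a fibroblast line engineered to express CD40 ligand and BAFF. A bulk, unsorted sample was taken at that point (D6), and the other cells were taken off the feeders, kept without stimulation for 2 more days and sorted at day 8 into PC and iGC of each isotype, IgE and IgG1. PC stands for plasma cells, and iGC is a term for the other sorted cells that the labels do not expand. PC and iGC were sorted on the same day, so a rise or fall from iGC to PC below means a higher or lower value in PC and follows no cells over time. Each of the 5 groups had 3 biological replicates, called independent by the submitters, and what a replicate number marks is not stated, so p-values measure the spread between these samples. Strain and sort markers are not given in the sources used here, and the sorted groups differ from D6 in feeder contact, time and sorting together.

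During B cell development 1 V segment is joined to a D and a J segment. A mature B cell usually carries a single productive heavy chain rearrangement, so its productive transcripts hold 1 V gene. Different clones can use the same V gene, so usage shares do not count clones. Class switching replaces the constant region (Ighm by Ighg1 or Ighe, for example) and leaves the V gene in place. Plasma cells transcribe the rearranged heavy chain gene heavily and secrete its product, while segments annotated as pseudogenes cannot encode a V domain. In bulk RNA, the share of Ighv counts that falls on a V gene, termed its usage share here, mixes how many cells carry that V gene with how much RNA each of them makes, and these cannot be told apart.

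All 154 members lie on chromosome 12 between 113572927 and 116010093 (GRCm38, GENCODE vM21 annotation), a span of 2.44 Mb, and 153 of them are on the minus strand. Members resemble each other closely: 88 had at least 90% identity to another Ighv transcript, and the median share of 76-base windows found in a single Ighv transcript was 96.7%, where 76 bases is the read length in the labels. In 121 members the expected count was fractional in at least 1 library, because reads that match several segments were divided among them. The coding sequences below are shown because the results turn on these genes. Ighv1-26 was the most used member, Ighv1-82 gained share in IgG1 PC, and Ighv2-6-8 and Ighv5-9 were among the members that differed most between the plasma cells of the isotypes. They are coding parts of GENCODE vM21 transcripts, 5′ to 3′ with the leader and V exons joined, of which the last 300 bases are printed. Capitals mark TGTGCAAGA, a common end of germline V segments that encodes the last framework cysteine. It was found on the transcript strand in the last 30 bases of 62 of the 113 members not annotated as pseudogenes (54.9%) and of 45.4% of all 185 Ighv transcripts. Ighv1-26 (ENSMUSG00000094546) lies at chr12:114788372-114788805, Ighv1-82 (ENSMUSG00000095127) at chr12:115952538-115952970, Ighv2-6-8 (ENSMUSG00000076646) at chr12:113796138-113796567 and Ighv5-9 (ENSMUSG00000095285) at chr12:113661769-113662228, all on the minus strand. Ighv2-6-8 does not hold the motif in that window.
Ighv1-26: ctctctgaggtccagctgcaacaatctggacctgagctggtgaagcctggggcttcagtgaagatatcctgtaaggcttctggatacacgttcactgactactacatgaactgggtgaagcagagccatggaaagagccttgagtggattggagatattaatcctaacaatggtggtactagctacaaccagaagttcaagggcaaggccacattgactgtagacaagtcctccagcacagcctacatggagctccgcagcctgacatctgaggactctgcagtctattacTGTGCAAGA
Ighv1-82: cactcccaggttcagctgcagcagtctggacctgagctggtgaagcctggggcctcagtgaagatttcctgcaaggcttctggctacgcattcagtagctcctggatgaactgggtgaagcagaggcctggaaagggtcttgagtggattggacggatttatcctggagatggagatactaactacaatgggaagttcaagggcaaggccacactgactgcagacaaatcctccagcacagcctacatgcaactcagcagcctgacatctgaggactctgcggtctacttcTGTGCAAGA
Ighv2-6-8: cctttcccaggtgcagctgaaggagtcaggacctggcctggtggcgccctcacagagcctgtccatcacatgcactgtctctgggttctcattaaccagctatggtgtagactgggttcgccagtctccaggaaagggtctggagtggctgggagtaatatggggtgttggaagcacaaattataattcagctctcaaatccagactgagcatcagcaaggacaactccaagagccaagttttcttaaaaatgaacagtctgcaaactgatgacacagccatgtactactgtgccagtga
Ighv5-9: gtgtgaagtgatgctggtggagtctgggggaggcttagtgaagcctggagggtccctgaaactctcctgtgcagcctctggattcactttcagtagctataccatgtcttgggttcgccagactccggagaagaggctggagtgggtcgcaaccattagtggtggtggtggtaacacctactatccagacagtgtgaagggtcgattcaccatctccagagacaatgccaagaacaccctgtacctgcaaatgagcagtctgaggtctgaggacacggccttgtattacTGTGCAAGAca

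The next pair shows why some single-gene values are uncertain. Ighv1-71 (ENSMUSG00000096577; chr12:115742205-115742647) and Ighv1-62-2 (ENSMUSG00000096078; chr12:115446409-115446850), both on the minus strand, have coding sequences of 359 bases that differ at 1 position, marked in capitals in the first 60 bases: G8T, counted from the first base of the Ighv1-71 coding sequence. Only 2.82% of the 76-base windows of the Ighv1-71 transcript and 8.91% of those of Ighv1-62-2 occur in no other Ighv transcript, so the division of reads between them is uncertain and their sum is the safer value.
Ighv1-71: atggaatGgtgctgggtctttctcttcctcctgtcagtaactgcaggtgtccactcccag
Ighv1-62-2: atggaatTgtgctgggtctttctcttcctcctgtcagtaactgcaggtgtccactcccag

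Expected counts, rounded to whole numbers, summed to between 17740830 and 54067920 per library, and Ighv genes received 14607 to 685654 of them. Plasma cell libraries held the most Ighv counts and IgE iGC replicate 3 the fewest. With so few counts, the Ighv1-26 share of 5.57% in that library had a 95% Wilson interval of 5.21% to 5.96%, against 5.46% to 5.57% in IgG1 PC replicate 2; such intervals cover counting error only. The labels were checked on marker genes. Summed plasma cell markers reached 16295 to 18762 CPM (counts relative to the TMM-scaled library size) in IgE PC and 9097 to 13375 in IgG1 PC, against at most 741 in the other groups, and Ighe and Ighg1 dominated the constant region counts of the isotypes named. The 6 B cell markers summed to 9239 to 9613 CPM in IgE iGC and 9465 to 9606 in IgG1 iGC. Their sums were 4686 to 4964 CPM in D6, 3770 to 3976 in IgE PC and 5021 to 5242 in IgG1 PC. All 6 T cell markers together gave at most 2.24 CPM and all 5 myeloid markers at most 8.57 CPM in any library. The 8 fibroblast markers summed to 216 to 350 CPM in D6, 47.8 to 65.0 in IgE iGC, 20.6 to 34.0 in IgE PC, 27.3 to 57.3 in IgG1 iGC and 62.8 to 185 in IgG1 PC. No defining fibroblast marker was at 0 in any group, and the part of such cells in the results below was not tested.

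Ighv transcripts were a small part of the RNA in every group but the plasma cells. Of all counts in a library, Ighv genes took 0.0807%, 0.0771% and 0.0767% in D6, 0.0917%, 0.0894% and 0.0823% in IgE iGC, and 0.0580%, 0.0589% and 0.0592% in IgG1 iGC. They took 1.3%, 1.33% and 1.39% in IgE PC and 1.71%, 1.27% and 1.37% in IgG1 PC. Every plasma cell library lay far above every other library, the IgE iGC libraries lay above the IgG1 iGC libraries, and the plasma cells of the isotypes overlapped. Within isotypes the share was 1.32 percentage points higher in PC than in iGC (exact permutation test of PC against iGC within isotype, two-sided, p = 0.005, the smallest it can give; 0.045 after Benjamini-Hochberg adjustment over 36 tests of this kind). For 3 libraries against 3 the smallest exact p is 0.1, so no single pair of groups could reach 0.05 by that test. Between IgE PC and IgG1 PC the share differed by -0.108 points (exact permutation p = 0.7), and the sign turned to 0.0210 points without IgG1 PC replicate 1.

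On the scale of summed CPM, Ighv expression was 807 ± 49.2 in IgE iGC and 17098 ± 1003 in IgE PC, a 21.2-fold difference (SD, n = 3). It was 534 ± 4.34 in IgG1 iGC and 15626 ± 3387 in IgG1 PC, a 29.3-fold difference, and 687 ± 25.5 in D6. Single genes were tested by edgeR's quasi-likelihood test over all 15692 genes that passed a filter on low counts. The filter kept 120 members, of which 14 reached its minimum only through plasma cell libraries, so counts over the 120 describe those genes and not all members. The 34 members left out held at most 0.117% of the Ighv counts of a library, and 25 of them are annotated as pseudogenes. From IgE iGC to IgE PC 120 of the 120 rose and none fell at an adjusted p under 0.05, where 30.5% of all genes tested rose and 33.6% fell; the median log2 change was 4.33, beside -0.08 over all genes. In IgG1 cells 117 rose and none fell (30.1% and 29.0% of all genes), with a median of 4.74 beside 0.01. With every member counted, the mean was higher in PC for 147 of 154 in IgE, lower for 3 and 0 in both groups for 4, and higher for 140, lower for 5 and 0 in both for 9 in IgG1.

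The steepest rises were picked among members that met the naming rule, which asks for 10 CPM in 1 group. All 6 met it through PC alone, with iGC means under 10 CPM, so their low start in iGC is partly set by this choice. In IgE cells Ighv10-3 stood at 5.07, 3.69 and 3.67 CPM in iGC and at 205, 200 and 219 CPM in PC (log2 5.62, SE 0.22). Ighv1-15 rose by 5.21 (SE 0.21) and Ighv1-31 by 5.19 (SE 0.31) on the log2 scale. Ighv1-31 averaged 0.601 CPM in IgE iGC, and Ighv2-4 averaged 0.204 CPM in IgG1 iGC. The folds of both rest on few iGC counts. In IgG1 cells Ighv2-4 rose by 6.22 (SE 0.26), Ighv5-15 by 5.98 (SE 0.31) and Ighv5-9 by 5.72 (SE 0.17). Ighv5-9 stood at 1.54, 1.88 and 2.00 CPM in IgG1 iGC and at 121, 88.4 and 76.7 CPM in IgG1 PC. The largest adjusted p among these 6 was 1.45e-09 (edgeR). The most used gene, Ighv1-26, rose by 4.47 (SE 0.12) in IgE and by 4.80 (SE 0.12) in IgG1.

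Ighv counts were also higher in PC relative to the constant region genes. Per 100 counts of the 8 Igh constant genes, Ighv counts numbered 9.04 ± 0.0444 in D6, 11.2 ± 0.845 in IgE iGC, 13.4 ± 0.195 in IgE PC, 7.66 ± 0.191 in IgG1 iGC and 17.8 ± 0.745 in IgG1 PC (SD, n = 3). The highest value outside IgG1 PC was 13.6, in an IgE PC library, and the lowest within IgG1 PC was 17.0. PC exceeded iGC by 6.20 counts within isotypes (exact permutation, two-sided, p = 0.005, adjusted 0.045). IgE was above IgG1 in iGC, by 3.51, and below it in PC, by 4.43 (difference -4.43), each with no overlap and at the smallest exact p of 0.1 (adjusted 0.144). These counts are not corrected for gene length, and the dominant constant gene differs between the isotypes. The ratios of IgE and IgG1 cells are therefore not on a like scale. At the level of single constant genes, Ighe averaged 6070 CPM in IgE iGC and 125602 CPM in IgE PC, and Ighg1 averaged 6201 CPM in IgG1 iGC and 85518 ± 22941 CPM in IgG1 PC.

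**Figure D1:**
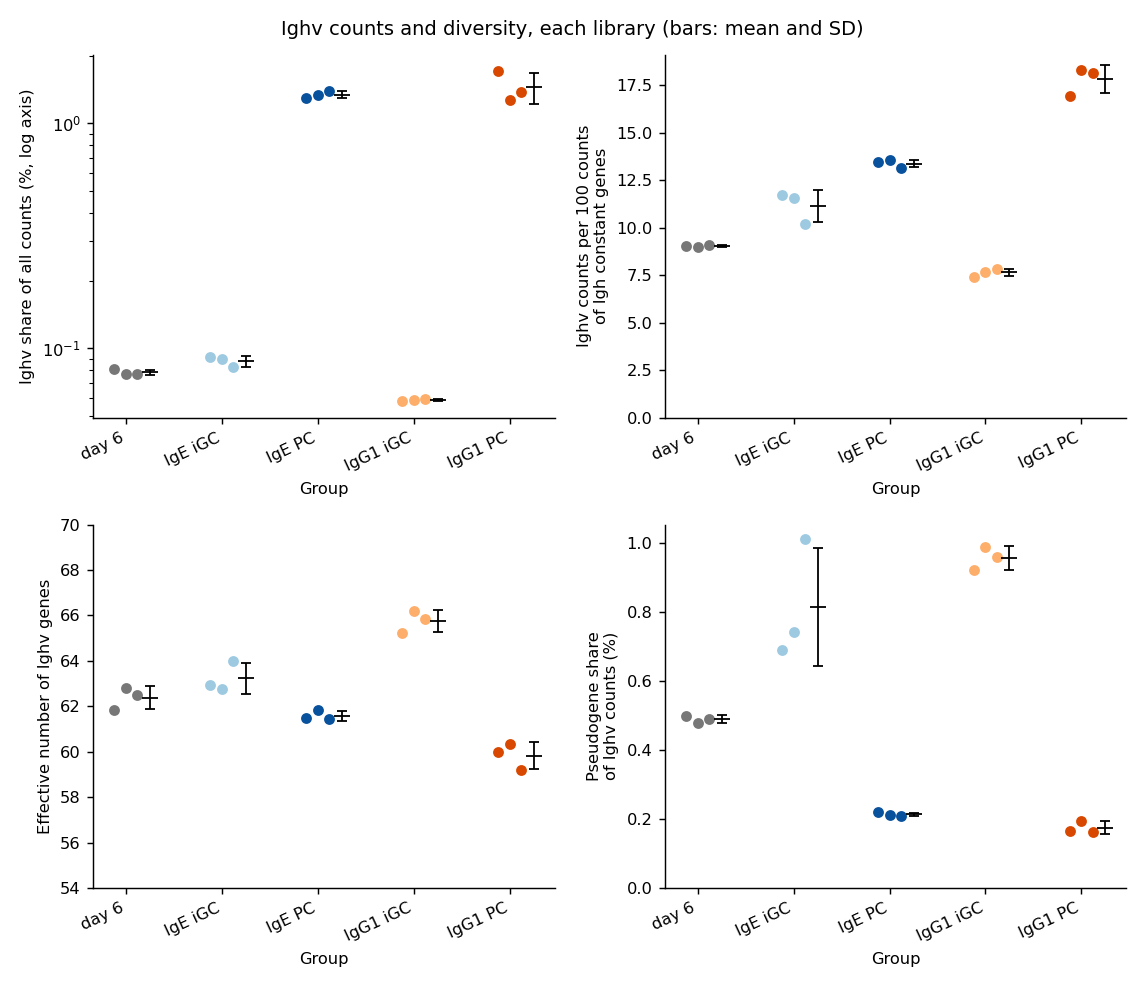
Each point is 1 library and the bars give the mean and SD of 3. The panels show the Ighv share of all counts (log axis), Ighv counts per 100 counts of Igh constant genes, the effective number of Ighv genes (axis not from 0) and the pseudogene share of Ighv counts. PC libraries lie above the others in the upper panels, up to 1.71% and 18.3, and below the iGC libraries in the lower panels, down to 59.2 and 0.163%.

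Regulators of heavy chain transcription and processing were looked up in the same comparison. In a list of 16, 9 rose and 7 fell from iGC to PC in IgE, where 30.5% of all genes tested rose and 33.6% fell. In IgG1, 9 rose and 6 fell, beside 30.1% and 29.0% of all genes. The list's medians were 0.60 and 0.29 on the log2 scale, beside -0.08 and 0.01 over all genes. Ell2, an elongation factor that favours secretory-form heavy chain mRNA, rose by 3.06 (SE 0.07; adjusted p = 2.06e-14, edgeR) in IgE and by 2.49 (SE 0.07; 1.71e-13) in IgG1. Cstf2, a cleavage stimulation factor subunit also linked to the secretory form, fell by 0.81 (SE 0.07; adjusted p = 7.06e-08, edgeR) and by 0.67 (SE 0.07; 1.16e-06). Irf4 and Prdm1, transcription factors of plasma cell formation, rose by 4.49 and 5.23 in IgE and by 3.86 and 5.63 in IgG1. Hnrnpll, an RNA-binding splicing regulator, rose by 4.01 and 3.92. Pax5 and Ebf1, factors of B cell identity, fell by 2.45 and 2.23 in IgE and by 1.45 and 1.41 in IgG1, and Pou2f2, an octamer-binding factor, fell by 0.40 and 0.25. Between the plasma cells, Ell2 was 0.72 (SE 0.06) higher in IgE on the log2 scale (adjusted p = 2.01e-07, edgeR).

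Usage was spread over many genes, with a stable top. Ighv1-26, from the Ighv1 (J558) family, was the most used gene by counts in all 15 libraries, at 6.45%, 6.74% and 6.60% of Ighv counts in D6, 5.66%, 5.69% and 5.57% in IgE iGC, 5.93%, 5.92% and 5.91% in IgE PC, 5.93%, 5.69% and 5.87% in IgG1 iGC, and 5.49%, 5.51% and 5.73% in IgG1 PC. D6 lay above all other groups, which overlapped except that IgE PC lay above IgE iGC and IgG1 PC. By TPM, which corrects for length, it led in 14 of 15 libraries, and Ighv1-82 led in IgG1 PC replicate 1. The next members by mean share over the groups were Ighv3-6 (4.45%), Ighv1-82 (4.32%), Ighv9-3 (3.73%), Ighv8-8 (3.18%), Ighv1-9 (2.83%), Ighv1-64 (2.79%), Ighv1-80 (2.60%), Ighv5-4 (2.54%) and Ighv1-18 (2.5%). By TPM the first 6 genes were the same, with Ighv1-82 (4.70%) ahead of Ighv3-6 (4.59%). The 10 most used genes held 34.9% of the mean share, the 33 genes with at least 1% held 72.2% and the 58 with at least 0.5% held 91.0%. Another 38 members had a mean share under 0.01% and held 0.0651% together.

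The order below the top differed between groups in a few places. In 4 groups Ighv1-26 was followed by Ighv3-6 with no overlap between their libraries, at 6.60% and 4.55% in D6 and at 5.92% and 4.65% in IgE PC. In IgG1 PC the second gene was Ighv1-82 at 5.21% and the next Ighv1-64 at 3.91%, each apart from its neighbours in every library, and from the fourth to the tenth place neighbours overlapped. Ighv9-3 and Ighv1-82 overlapped in D6 (4.02% and 4.0%), in IgE iGC and in IgE PC. Over the groups, 7 genes were among the 10 most used in every group and 12 in at least 1.

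**Figure D2:**
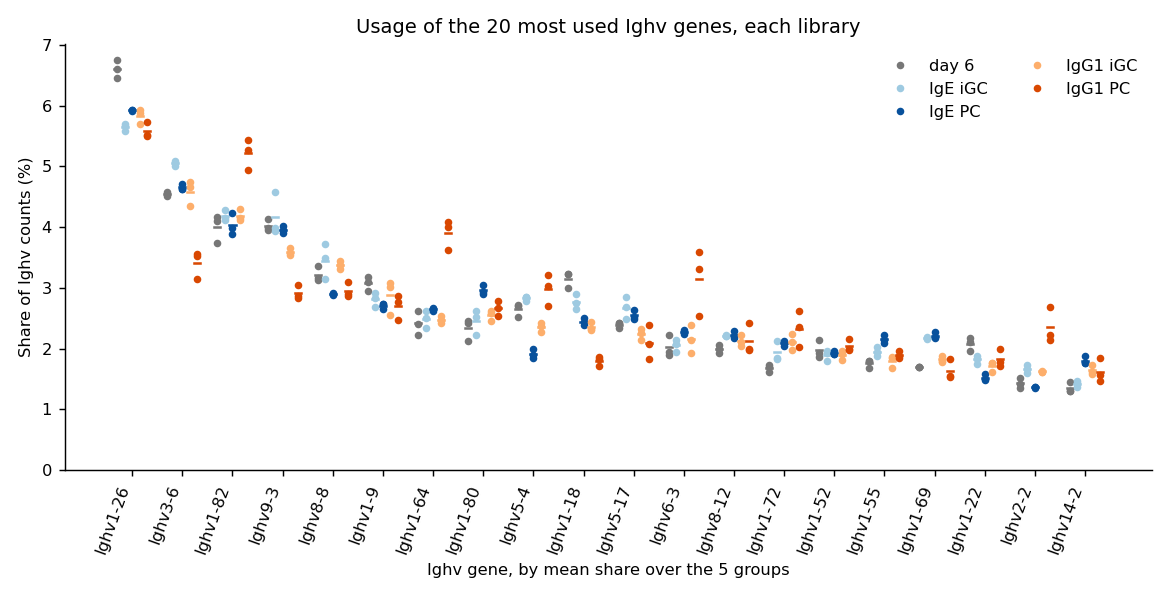
Share of Ighv counts (%) of the 20 most used genes, with 1 point for each library, a dash for the mean of 3 and a colour for each group. Ighv1-26 leads at 5.49% to 6.74%, and IgG1 PC stands apart from the other groups in Ighv3-6, Ighv1-82, Ighv9-3, Ighv1-64 and Ighv1-18.

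Diversity was measured as the effective number of Ighv genes, the exponential of the Shannon entropy of the shares, which equals the number of genes if all were used alike. It was 61.8, 62.8 and 62.5 in D6, 62.9, 62.7 and 64.0 in IgE iGC, 61.5, 61.8 and 61.4 in IgE PC, 65.2, 66.2 and 65.8 in IgG1 iGC, and 60.0, 60.3 and 59.2 in IgG1 PC. IgG1 iGC lay above and IgG1 PC below every other library. Within isotypes PC stood below iGC (difference -3.78; exact permutation, two-sided, p = 0.005, adjusted 0.045), and the size of that difference was -1.65 in IgE and -5.91 in IgG1. The inverse Simpson index, which gives more weight to the most used genes, gave a difference of -1.20 within isotypes (exact permutation p = 0.1) and turned the sign in IgE to 0.50. Between 17 and 19 genes held 50% of Ighv counts in every library. Members with a count above 0 numbered 123 to 127 in D6, 125 to 131 in IgE iGC, 138 to 140 in IgE PC, 126 to 127 in IgG1 iGC and 132 to 138 in IgG1 PC. Expected at the Ighv depth of the smallest library, the numbers were 119.9, 124.1, 113.7, 124.2 and 110.9 in that order, so that the plasma cell groups moved from the highest to the lowest.

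Pseudogenes took a small share of Ighv counts, and that share was lowest in plasma cells. The 41 pseudogenes held 0.499%, 0.479% and 0.491% of Ighv counts in D6, 0.690%, 0.741% and 1.01% in IgE iGC, 0.219%, 0.210% and 0.210% in IgE PC, 0.920%, 0.987% and 0.960% in IgG1 iGC, and 0.166%, 0.195% and 0.163% in IgG1 PC. All PC libraries lay below all D6 libraries, and these below all iGC libraries. Their summed CPM was nonetheless higher in PC, at 36.4 ± 1.69 against 6.51 ± 0.962 in IgE (5.59-fold) and 27.1 ± 4.81 against 5.10 ± 0.167 in IgG1 (5.30-fold; SD, n = 3). The summed CPM of the other members differed 21.3-fold and 29.5-fold. The most used pseudogene, Ighv1-2 (ENSMUSG00000102524), held 0.128%, 0.145% and 0.242% in IgE iGC, 0.0810%, 0.0753% and 0.0738% in IgE PC, 0.175%, 0.203% and 0.185% in IgG1 iGC, and 0.0817%, 0.0856% and 0.0629% in IgG1 PC, with no overlap between PC and iGC. Ighv1-38 (ENSMUSG00000103873) held 0.0648% to 0.0854% in IgE iGC and 0.0153% to 0.0170% in IgE PC, and 0.0963% to 0.183% in IgG1 iGC and 0.0101% to 0.0125% in IgG1 PC. Counting error is large for such genes: 11 counts of Ighv1-38 in IgE iGC replicate 3 gave an interval of 0.0421% to 0.135%.

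Changes in usage were tested with the library size set to the summed Ighv count, so that a fold change is a change in usage share. On this scale nearly every gene outside the locus falls from iGC to PC, and the adjusted p is then close to the unadjusted one. From iGC to PC, 15 of the 120 tested members gained share and 31 lost it in IgE (0.478% of all genes tested rose and 97.1% fell on this scale), and 21 gained and 45 lost share in IgG1 (0.293% and 97.5%). The typical change was small: the median size was 0.25 in IgE and 0.41 in IgG1 on the log2 scale, and 21 and 29 of the called members changed at least 2-fold. Of the 16 tested pseudogenes 14 lost share in IgE and 14 in IgG1 and none gained it, with medians of -2.10 and -2.76, while among the 104 other members 17 lost and 15 gained in IgE, and 31 lost and 21 gained in IgG1. The other tested pseudogenes, Ighv2-1 and Ighv1-62, named after their values were seen, passed in neither, and Ighv2-1 was at 0 in all IgE iGC libraries. Ighv1-2 fell by 1.11 (SE 0.23) in IgE and by 1.28 (SE 0.23) in IgG1, and Ighv1-38 fell by 2.21 (SE 0.32) and 3.51 (SE 0.32).

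The isotypes shared many of these calls. Both lists held 36 members, 78.3% of those called in IgE and 54.5% of those called in IgG1, and the comparisons share no libraries. The lists were long, with 46 of the 120 tested members called in IgE and 66 in IgG1. Of all genes tested, 97.1% and 97.5% fell on this scale. Whether the overlap exceeds that of unrelated lists of these lengths was not tested. Of the 36, 27 lost share in both, 6 gained it in both and 3 moved in opposite directions. The 27 comprised 14 pseudogenes and 13 other members, with a median mean share of 0.0546%; Ighv8-8, at 3.18%, was the most used. Ighv1-67 fell by 1.92 (SE 0.23) and 2.57 (SE 0.24), Ighv12-3 by 1.41 (SE 0.22) and 2.46 (SE 0.23), and Ighv5-2 by 1.20 (SE 0.21) and 1.9 (SE 0.21) in IgE and IgG1. Ighv1-67 held 0.270%, 0.283% and 0.418% in IgE iGC and 0.0752%, 0.0897% and 0.0865% in IgE PC. The 6 that gained share in both were Ighv1-31, Ighv1-39, Ighv1-53, Ighv7-3, Ighv10-3 and Ighv14-3. Those moving in opposite directions were Ighv2-2, Ighv5-4 and Ighv7-1. Of the 76-base windows of Ighv2-2, 61.0% occur in no other Ighv transcript. Its nearest member is Ighv2-4, at 97.2% identity, so the division of reads between these 2 genes is uncertain. Ighv5-4 fell by 0.56 (SE 0.09) in IgE and rose by 0.34 (SE 0.09) in IgG1, Ighv2-2 fell by 0.29 (SE 0.10) and rose by 0.53 (SE 0.10), and Ighv7-1 rose by 0.71 (SE 0.25) and fell by 0.55 (SE 0.24).

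**Figure D3:**
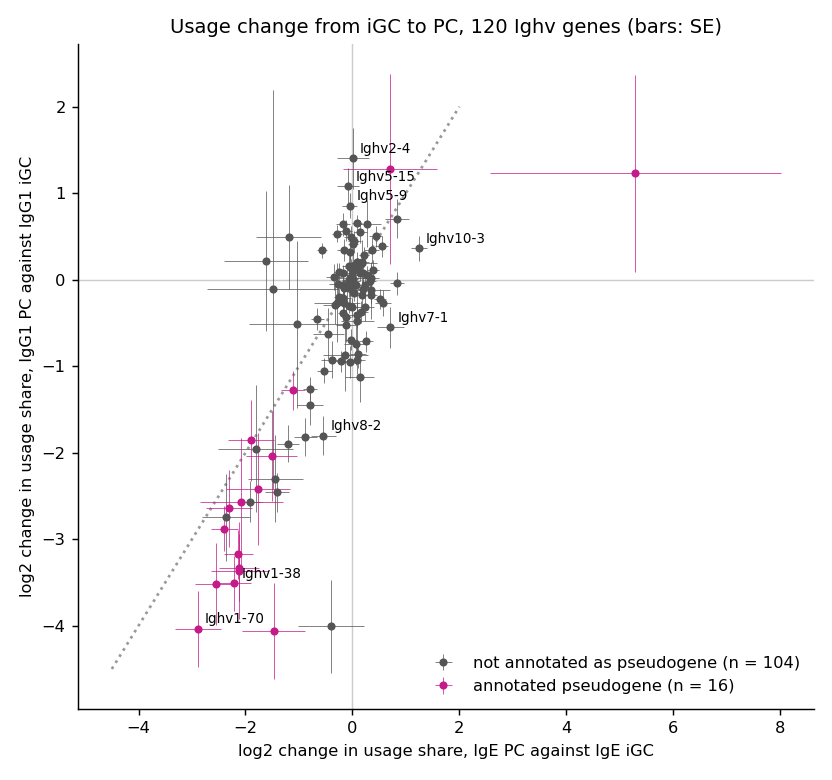
Log2 change in usage share from iGC to PC in IgE (x axis) and IgG1 (y axis) for 120 tested Ighv genes, with bars for the SE, a dotted line where both are equal, and pseudogenes in pink. Most pseudogenes lie at the lower left, with Ighv1-70 at -2.89 and -4.04, and Ighv2-4, Ighv5-15 and Ighv5-9 rise on the IgG1 axis alone; the pseudogene at the far right is Ighv2-1, which was at 0 in IgE iGC.

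The change in share differed between isotypes for 37 members (24 more positive in IgE and 13 more negative, where 33.0% and 8.27% of all genes passed on this scale), by the interaction of isotype with PC against iGC, in which a positive value is a larger gain or smaller loss in IgE. On TMM scaling 7 passed upwards and 32 downwards (19.8% and 23.1% of all genes), with a median of -0.29 beside -0.06 over all genes. With total count scaling these numbers were 2 and 52, and without IgG1 PC replicate 1 they were 17 and 29. Ighv5-9 (-0.91, SE 0.20; adjusted p = 0.00276, edgeR) and Ighv5-15 (-1.16, SE 0.29; 0.00543) gained share in IgG1, by 0.85 (SE 0.14) and 1.08 (SE 0.21), while in IgE the values were -0.05 (SE 0.14; adjusted p = 0.717) and -0.08 (SE 0.20; 0.704). Ighv7-1 (1.26, SE 0.35; 0.00928) and Ighv8-2 (1.26, SE 0.32; 0.00600) were at the other end. Ighv8-2 lost share in both isotypes, by 0.54 (SE 0.23) in IgE and by 1.80 (SE 0.23) in IgG1. Ighv2-4 had an interaction of -1.40 (SE 0.47; adjusted p = 0.0265), but 65.8% of its 76-base windows are unique. It did not pass without IgE iGC replicate 3 (-0.98), without IgG1 iGC replicate 1 or 3, or by DESeq2, and the adjusted p ran from 0.0120 to 0.0667 over 16 alternatives.

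Many members differed between the plasma cells of the isotypes, as did many of the other genes tested. On TMM scaling 43 of the 120 members were higher in IgE PC and 14 lower (27.4% and 30.7% of all genes tested), with a median of 0.21 beside -0.05. Total count scaling, which shifts the median of all genes to -0.30, gave 28 and 26, and leaving out IgG1 PC replicate 1 gave 69 and 10. In usage share 29 were higher in IgE PC and 18 lower (12.3% and 32.5% of all genes on this scale), and 6 of these differed at least 2-fold. With both directions counted, members were called no more often than all genes on TMM scaling. The number of calls therefore does not set the locus apart on that scale. On TMM scaling, calls higher in IgE PC were more frequent among members than among all genes, and calls lower in IgE PC less frequent. In usage share, dividing by the summed Ighv count shifts the other genes against the members (median -0.22 over all genes, 0.09 over members). All genes are therefore no background for members on that scale. Fibroblast markers were higher in IgG1 PC, as given above, and their part in these differences was not tested.

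Ighv2-6-8, a member of the Ighv2 (Q52) family, held 0.113%, 0.123% and 0.108% of Ighv counts in IgE PC and 0.0461%, 0.0314% and 0.0566% in IgG1 PC. The groups did not overlap, and the IgE PC values lay among those of D6 and the iGC groups (0.0716% to 0.134%). It was 1.36 higher in IgE PC in share (SE 0.24; adjusted p = 0.000331, edgeR) and 1.49 higher in TMM-scaled expression (SE 0.22), both on the log2 scale. Ighv13-2, the only member of its family, held 0.463%, 0.513% and 0.497% in IgE PC and 0.265%, 0.262% and 0.215% in IgG1 PC (log2 difference in share 0.99, SE 0.15). Ighv1-71 was 1.05 higher (SE 0.17) and Ighv1-62-2, its near-identical partner, 0.77 higher (SE 0.14). Summed over the pair, the share was 1.22%, 1.33% and 1.3% in IgE PC and 0.689%, 0.732% and 0.697% in IgG1 PC, and 1.21% to 1.73% in D6 and the iGC groups, so that the IgG1 PC libraries lay below all others whichever way the reads were divided.

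In the other direction, Ighv5-9 and Ighv5-15, both of the Ighv5 family, and Ighv1-66 were higher in IgG1 PC. Ighv5-9 held 0.328%, 0.350% and 0.336% in IgE PC and 0.619%, 0.668% and 0.542% in IgG1 PC (log2 -0.85, SE 0.13; adjusted p = 9.50e-05, edgeR). Ighv5-15 held 0.288%, 0.302% and 0.299% against 0.690%, 0.508% and 0.468% (log2 -0.91, SE 0.19). Ighv1-66 held 0.534%, 0.475% and 0.462% against 0.870%, 0.831% and 0.859% (log2 -0.80, SE 0.11). All IgG1 PC libraries lay above all IgE PC libraries for these genes. The calls of all 6 genes held in every alternative run on both scales.

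Several of the 10 most used genes also differed in share between IgE PC and IgG1 PC. Ighv1-64 held 2.62%, 2.67% and 2.64% in IgE PC and 4.09%, 4.0% and 3.63% in IgG1 PC (-0.56, SE 0.09). Ighv5-4 held 1.89%, 1.99% and 1.85% against 2.70%, 3.03% and 3.21% (-0.64, SE 0.09). Ighv3-6 held 4.63%, 4.62% and 4.71% against 3.56%, 3.52% and 3.14% (0.45, SE 0.08), Ighv9-3 held 3.95%, 3.91% and 4.02% against 3.04%, 2.84% and 2.87% (0.44, SE 0.09), and Ighv1-18 held 2.39%, 2.43% and 2.51% against 1.86%, 1.72% and 1.83% (0.44, SE 0.08). Ighv1-82 was also lower in IgE PC (-0.37, SE 0.09; adjusted p = 0.00229, edgeR). Ighv1-26 (0.09, SE 0.08), Ighv1-9 (0.00, SE 0.09), Ighv8-8 (-0.02, SE 0.09) and Ighv1-80 (0.15, SE 0.09) did not pass.

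Between the iGC of the isotypes, more members differed in amount than in usage share (36 against 23 of 120). On TMM scaling 36 of the 120 members were higher in IgE iGC than in IgG1 iGC and none lower, where 1.99% of all genes were higher and 1.88% lower; the median log2 difference was 0.57 beside 0.01, and the summed CPM was 1.51-fold higher. None of the 16 tested pseudogenes passed. Ighv5-4 was 0.86 higher (SE 0.09; adjusted p = 7.47e-05, edgeR), Ighv5-17 0.85 (SE 0.13) and Ighv1-69 0.85 (SE 0.12). Leaving out IgE iGC replicate 1 or 2 or IgG1 iGC replicate 2 or 3 lowered the count to 18, 21, 23 and 20. In usage share 9 were higher and 14 lower (0.35% and 68.1% of all genes on this scale). Since most genes were lower on this scale, the adjusted p was not far above the unadjusted one. For Ighv5-4 it was 0.0199 beside 0.0120, and for Ighv5-17 0.0412 beside 0.0275 (edgeR). The differences were small: Ighv5-4 by 0.26 (SE 0.09), Ighv5-17 by 0.26 (SE 0.11) and Ighv1-69 by 0.25 (SE 0.09). Without IgE iGC replicate 1 or 2 or IgG1 iGC replicate 2 or 3 the count of 23 became 10, 13, 13 and 12, and all 3 of these genes lost the call in usage share without IgE iGC replicate 2. Ighv1-69 lost it in 4 of the 6 runs with a library left out.

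Against the day 6 culture, 32 members were higher in IgE iGC and 2 lower (32.8% and 36.3% of all genes), and 10 were higher in IgG1 iGC and 36 lower (32.4% and 36.0%), with medians of 0.32 and -0.30. These comparisons share the D6 libraries. In usage share 10 were higher and 13 lower in IgE iGC (19.2% and 40.6% of all genes), and 20 higher and 7 lower in IgG1 iGC (43.3% and 19.3%). Ighv1-69 had a larger share in IgE iGC (2.15%, 2.18% and 2.19%) than in D6 (1.70%, 1.71% and 1.70%), a log2 difference of 0.35 (SE 0.09). Ighv1-39 had a smaller share in both iGC groups, by 0.49 (SE 0.10) in IgE and by 0.28 (SE 0.10) in IgG1, and Ighv1-18 a smaller share in IgG1 iGC, by 0.42 (SE 0.09). Of these, the Ighv1-39 call in IgG1 was lost without D6 replicate 2 or IgG1 iGC replicate 2 or 3.

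By family, Ighv1 (J558) held most counts in every group: 56.9% ± 0.612 in D6, 55.0% ± 0.544 in IgE iGC, 55.7% ± 0.324 in IgE PC, 55.8% ± 0.0234 in IgG1 iGC and 57.7% ± 1.12 in IgG1 PC (SD, n = 3). Within PC and within iGC it was lower in IgE than in IgG1 (-1.37 percentage points; exact permutation, two-sided, p = 0.005, adjusted 0.045), and within isotypes PC was above iGC by 1.25 points (exact permutation p = 0.01, adjusted 0.072). The Ighv5, Ighv3, Ighv8, Ighv9 (VGAM3.8), Ighv2 (Q52) and Ighv14 (SM7) families followed with 9.50%, 6.27%, 5.8%, 5.32%, 4.33% and 4.02% of the mean share. Ighv9 held 3.78% to 4.07% in IgG1 PC and 5.23% to 6.45% in all other libraries. Ighv3 held 4.68% to 5.32% in IgG1 PC, 6.04% to 6.17% in IgE PC and at least 6.32% elsewhere. Ighv10 held 2.90% to 3.13% in IgE PC and 1.66% to 1.98% in IgE iGC. In IgG1 its values overlapped, at 2.24% to 2.85% in PC and 2.14% to 2.36% in iGC. Ighv12 was lower in PC without overlap in both isotypes. It held 0.0400% to 0.0652% in IgG1 PC and 0.261% to 0.329% in IgG1 iGC, and 0.0880% to 0.0980% in IgE PC and 0.205% to 0.301% in IgE iGC.

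Position along the locus was described by cutting the members, in map order, into 3 blocks of 52, 51 and 51. The block farthest from the D segments, where 39 of 51 members belong to Ighv1, held 37.2% ± 0.737 of Ighv counts in D6, 39.4% ± 0.589 in IgE iGC, 39.3% ± 0.222 in IgE PC, 39.1% ± 0.743 in IgG1 iGC and 41.1% ± 0.845 in IgG1 PC. The nearest block held 31.9% in D6, 33.6% in IgE iGC, 32.0% in IgE PC, 32.4% in IgG1 iGC and 30.1% in IgG1 PC. The middle block holds Ighv1-26, and 42 of its 51 members belong to Ighv1. It was highest in D6 at 30.8% and lay between 27.0% and 28.8% in the sorted groups. The farthest block was higher in every IgG1 PC library, from 40.2%, than in any other library, up to 39.9%.

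**Figure D4:**
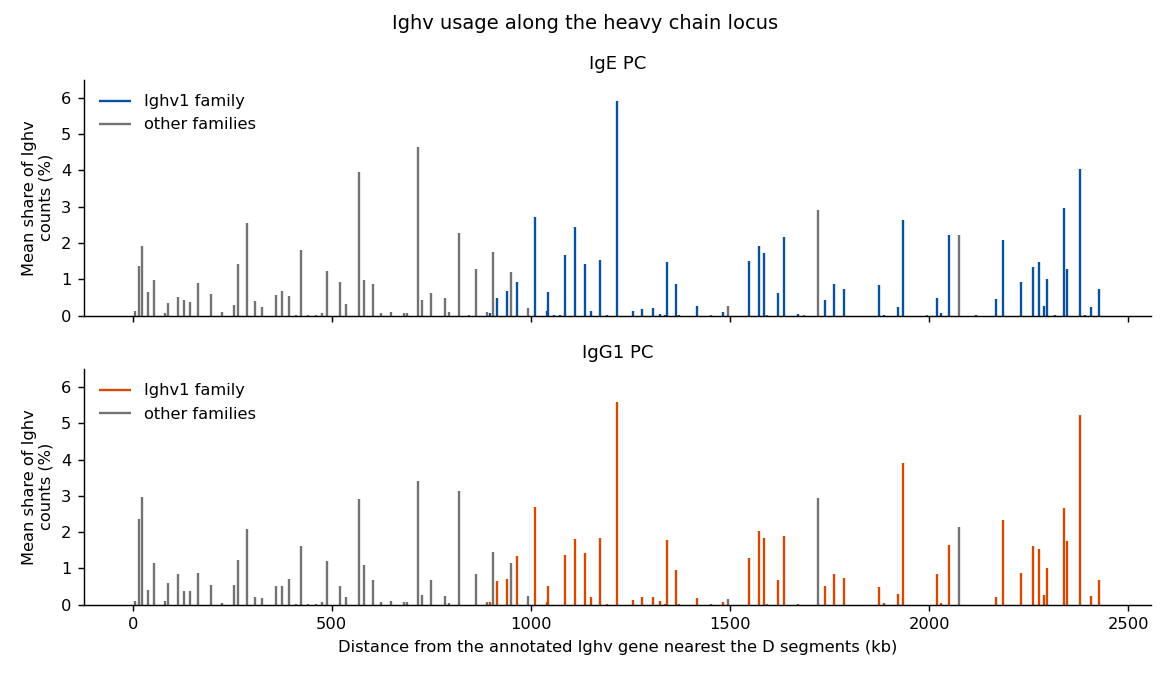
Mean share of Ighv counts (%) of each member against its distance in kb from the Ighv gene nearest the D segments, for IgE PC and IgG1 PC, with Ighv1 genes in colour and other families in grey. Ighv1 genes make up most of the middle and far parts of the locus, and the tallest line in both panels is Ighv1-26 (5.92% and 5.58%).

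By the Bray-Curtis measure, replicates of a group mostly resembled each other more than other groups in usage. The Bray-Curtis dissimilarity of shares, which is 0 for identical usage and 1 for no shared gene, ran from 0.0185 to 0.0581 in the 15 pairs within groups and from 0.0577 to 0.138 in the 90 pairs between groups. The nearest library was of the same group for all 15 libraries by Bray-Curtis and for 14 by Pearson's r of log2 shares (pseudocount 0.01 percentage points, r across genes). Pairs of IgG1 PC with any other group were at 0.10 or above, and pairs among the other groups at 0.0935 or below. By r, which gives little-used genes more weight, IgG1 PC did not stand apart from every group. Its mean r was 0.991 with IgE PC, beside 0.980 for IgE PC with IgE iGC, and 0.983 with D6. With IgG1 iGC (0.965) and IgE iGC (0.970) its mean r was the lowest between any groups. By Bray-Curtis, IgE PC replicates were the most alike (mean 0.0190) and IgG1 PC replicates the least (mean 0.0556), with D6 at 0.0353, IgE iGC at 0.0453 and IgG1 iGC at 0.0450. By r the order differed, with means of 0.999 in IgE PC, 0.996 in IgG1 PC, 0.991 in D6, 0.989 in IgE iGC and 0.988 in IgG1 iGC. For the 58 genes with a mean share of at least 0.5%, the median coefficient of variation of the share was 5.34% in D6, 6.03% in IgE iGC, 2.80% in IgE PC, 6.70% in IgG1 iGC and 7.79% in IgG1 PC. Counting error adds to each of these measures of spread. Ighv counts were 14607 to 37465 in D6 and iGC libraries and 523601 to 685654 in PC libraries. None of the measures was corrected for depth, so the ranks of the shallower groups include more counting error.

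The replicate pairs were also set against counting error. A chi-square per degree of freedom, which is near 1 for counting error alone and grows with depth for a given spread, so that groups of unequal depth cannot be ranked by it, averaged 1.32 in D6, 1.88 in IgE iGC, 1.68 in IgG1 iGC, 6.19 in IgE PC and 55.8 in IgG1 PC. The lowest value of any replicate pair was 1.23, and each library was counted as 1 replicate. The median biological coefficient of variation was 0.132 for the 120 tested members and 0.0954 for all genes tested.

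**Figure D5:**
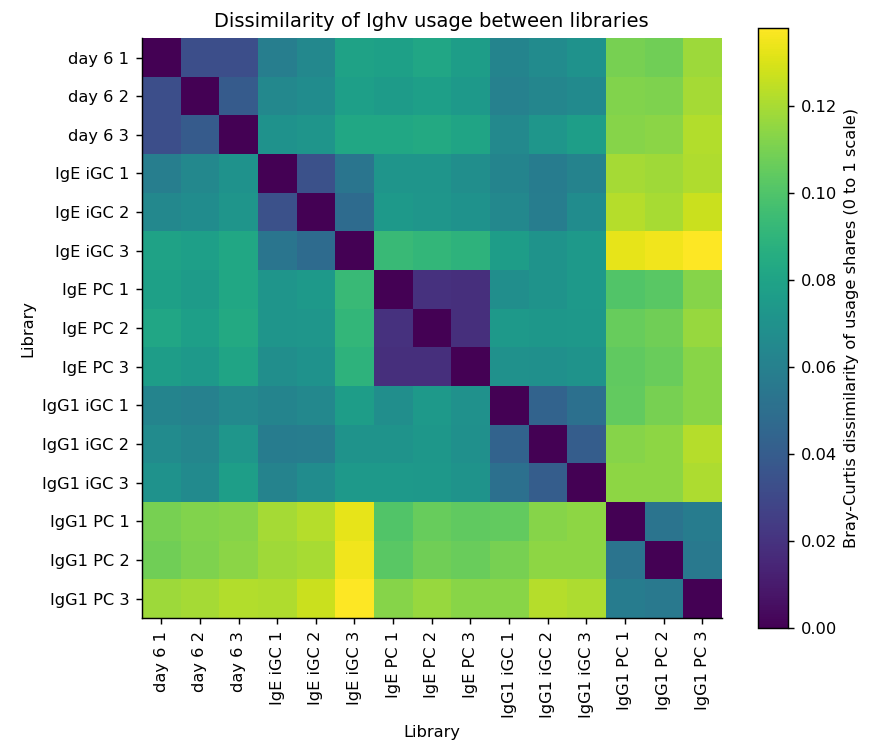
Bray-Curtis dissimilarity of Ighv usage shares for every pair of the 15 libraries, with darker colours for more alike libraries. The 3 by 3 blocks on the diagonal are darkest, most of all IgE PC (mean 0.0190), and the IgG1 PC rows and columns are brightest against all other groups, from 0.10 to 0.138.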

How the data were processed

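Polyadenylated RNA of 15 samples was sequenced as strand-specific single-end 76-base reads, per the labels' protocols. The authors deposited RSEM expected counts and TPM values per gene, per the file headers; the submitters' processing notes name cutadapt 1.9.1, STAR 2.5.2a, RSEM 1.3.0, DESeq2 1.12.3 and GRCm38, and the gene annotation release is not given in the sources used here. Expected counts are estimated counts, in which reads matching several genes are divided among them, and they were rounded to whole numbers for the tests. TPM values, which the authors' RSEM run scales by gene length, served as an alternative. Gene IDs were named from a mouse gene table (51633 of 51912 matched) and placed by GENCODE vM21, and 0 sample columns were left unmapped.

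The main test was the quasi-likelihood test of edgeR 4.0.16 in R 4.3.3, with TMM scaling, 1 fit over the 5 groups, filterByExpr (minimum count 10, total 15) and Benjamini-Hochberg adjustment over 15692 genes, called at an adjusted p under 0.05. A second fit set the library size to the summed Ighv count, so that a fold is a change in usage share. Values per library were compared by exact two-sided permutation tests (scipy 1.17.1), 3 against 3 or within strata. Alternatives were DESeq2 1.42.0, other scalings, no filter, only the groups compared, the replicate number as a block and leaving out each library. Both fits were tested on simulated data. Library totals of 17740830 to 54067920 rounded counts set the precision; Wilson intervals at 95% cover counting error only, since the reads carry no molecular identifiers.

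The genes named are the 10 with the highest mean share, the 3 highest in each group, the top gene of each library, the 2 most used pseudogenes and, in each of 7 contrasts, the 3 largest rises and 3 largest falls among called genes with at least 10 CPM and, between 2 groups, replicates that do not overlap; others were named after their values were seen. Those others are the close partner Ighv1-62-2, the members called in both isotypes, and Ighv2-1, Ighv1-62 and Ighv1-70. The members and all lists were chosen with earlier results of these data known.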

Additional observations from a re-analysis of the deposited data

Results flagged for a closer look

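For the genes below, the step from iGC to PC was not the same in IgE and IgG1 cells by the interaction of isotype with PC against iGC (edgeR, adjusted p under 0.05); above 0, the IgE change was the more positive. In TMM-scaled expression the log2 interaction was 0.83 for Ighv7-1, 0.81 for Ighv8-2, 0.64 for Ighv12-3, -1.77 for Ighv2-4, -1.67 for Ighv5-15 and -1.38 for Ighv5-9. In usage share it was 1.26 for Ighv7-1, 1.26 for Ighv8-2, 1.26 for Ighv2-6-8, -1.40 for Ighv2-4, -1.16 for Ighv5-15 and -0.91 for Ighv5-9. The genes were picked for the size of this term. The calls for Ighv5-9 and Ighv5-15 held in every alternative run on both scales, while those in expression for Ighv7-1, Ighv8-2 and Ighv12-3 were lost in 3, 7 and 5 of 19 alternatives, total count scaling among them. In usage share, Ighv2-6-8 lost the call in 2 and Ighv2-4 in 4 of 16.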

How the results depend on the processing

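Among 63 calls of single named genes, 47 passed in every alternative run and 16 lost the call in at least 1; of 786 alternative values 63 lost the call and none changed sign (0 reversed). Setting the library size to the summed Ighv count changed the number of called members from 36 to 23 for IgE iGC against IgG1 iGC, from 120 to 46 and from 117 to 66 for PC against iGC in IgE and IgG1, and from 46 to 27 for IgG1 iGC against D6, since the 2 scales ask different questions. For IgE iGC against IgG1 iGC, fitting only those groups gave 57 and DESeq2 54, and leaving out 1 library gave 18 to 32. In usage share the same comparison gave 10 to 18 with 1 library left out, and 7 without a filter on low counts against 23 with it; without that filter the interaction gave 24 against 37 and IgE iGC against D6 gave 14 against 23. Total count scaling moved the median log2 change of all genes to -0.55 in IgE and -0.22 in IgG1 for PC against iGC, beside Ighv calls of 119 and 117. The difference in Ighv share between IgE PC and IgG1 PC (-0.108 points) was 0.0245 by TPM and ran from -0.199 to 0.0210 with 1 library left out, and that of IgE against IgG1 within PC and iGC (-0.0394) was 0.0846 by TPM and ran from -0.0850 to 0.0251; the positive values came without IgG1 PC replicate 1, and the cause of the turn by TPM was not tested. The effective number in IgE PC against IgE iGC turned to 0.50 by inverse Simpson, and PC against iGC within isotypes became -1.20 (exact permutation p = 0.1). PC against iGC within isotypes, with 1 library left out, ran from -0.0243 to 0.0394 points for the top gene and from -0.210 to 0.0752 for the top 10 genes, both around 0. Members with at least 10 counts averaged 99.3 in D6, 102.3 in IgE iGC, 121.3 in IgE PC, 99.3 in IgG1 iGC and 119.7 in IgG1 PC, and at equal depth members above 0 averaged 119.9, 124.1, 113.7, 124.2 and 110.9. Libraries with the same replicate number did not deviate together over all genes (mean r -0.0146, highest 0.0908 over 30 pairs), so the numbers were not taken to pair samples. A fit with the replicate block gave 56, 38, 120, 117, 37, 36 and 50 called members in the order IgE PC against IgG1 PC, IgE iGC against IgG1 iGC, PC against iGC in IgE and IgG1, interaction, and IgE iGC and IgG1 iGC against D6, and 48, 20, 46, 67, 37, 21 and 28 in usage share, each within 1.5 times the count without it. In Ighv usage alone, same-numbered libraries had a mean Bray-Curtis dissimilarity of 0.0890 against 0.0897 for others (exact permutation over 1296 renumberings, p = 0.0401), and by r of deviations the difference was 0.0974 (exact permutation p = 0.0540). Ighv depth of 14607 counts in the smallest library limits what can be said of genes with a share near 0.01%, and sequence likeness limits the division of reads between close members.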
